A study of Mus musculus with 15 samples.

Results

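Hearts of mice with chronic kidney disease (CKD) that had received renalase by gene transfer (WTCKD+RNLS) were compared with hearts of sham-operated mice (WTSHAM), to ask which genes of treated hearts stayed away from the sham level and which went past it. The comparison used 6 of the 15 libraries in the series, 3 per group, chosen by the group names in the sample labels, and tested 12655 of the 17447 genes in the count table, those with at least 10 counts in at least 3 of these 6 libraries. The mice were C57BL/6J males aged 6 to 8 weeks at the start, and hearts were collected 18 weeks after surgery. CKD was made by subtotal nephrectomy in 2 steps, and WTSHAM mice had the same operations with no kidney tissue removed and, by their labels, no virus. WTCKD+RNLS mice were injected through the tail vein 2 weeks after the second operation with AAV9-cTnT-Rnls, a virus in which the cardiac troponin T promoter limits renalase expression to cardiomyocytes. The treated and sham groups therefore differed in nephrectomy and in virus at once, and the parts of these factors cannot be told apart in this comparison alone. For reference, values are given beside it for WTCKD, wild-type mice with CKD and an empty vector, and for mice that lack renalase through a TALEN deletion and had CKD with the vector (KOCKD) or with the virus (KOCKD+RNLS), each with 3 libraries. WTCKD and WTSHAM likewise differed in nephrectomy and in vector at once, which cannot be told apart either. WTCKD hearts are called untreated below in the sense of no renalase virus.

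Renalase is a flavoprotein made largely by the kidney, and the heart in CKD is known for thickening of the muscle wall and for collagen deposited between muscle cells. Heart tissue also carries an interferon programme, in which IRF and STAT transcription factors switch on antiviral genes, interferon-inducible GTPases and antigen presentation. A circadian clock runs in the same cells, in which ARNTL and CLOCK activate their own repressors, so that activators and repressors peak at opposite times of day.

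The data were read counts per gene. WTSHAM replicates 1 to 3 held 12222947, 12669724 and 13107066 counts, and WTCKD+RNLS replicates 1 to 3 held 12205920, 11644580 and 13424078. Single genes are given in CPM, a gene's counts relative to the scaled total of its library. Differences were tested with edgeR's quasi-likelihood test, fitted to all 15 libraries with the group as the only term, and a gene was called where the Benjamini-Hochberg adjusted p over the 12655 genes was under 0.05. The common biological coefficient of variation was 0.131. The labels call the replicates separate samples and say no more, so p-values measure the spread between these samples. A library stood apart in each group. In counts compared gene by gene, a chi-square statistic per degree of freedom, which counting noise alone would put near 1, was 19.8 and 20.4 between WTSHAM replicate 1 and replicates 2 and 3, and 9.11 between the latter pair. Among WTCKD+RNLS libraries it was 21.0 and 19.2 between replicate 2 and replicates 1 and 3, and 8.91 between the latter pair. In the labels, the names of WTSHAM replicate 1 and WTCKD+RNLS replicate 3 begin with other letters than those of the rest of their groups, and what the letters stand for was not given in the sources used here.

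Treated hearts differed from sham hearts in 1011 genes, of which 374 were higher (2.96% of genes tested) and 637 lower (5.03%). WTCKD against WTSHAM gave 86 higher (0.68%) and 224 lower (1.77%) genes, and WTCKD+RNLS against WTCKD gave 273 higher (2.16%) and 302 lower (2.39%). These 3 comparisons share libraries and are set side by side only. The median log2 fold change of treated against sham over all genes was 0.01. An unadjusted p under 0.05 alone was reached by 3044 of the 12655 genes in treated against sham hearts. It was reached by 2285 in WTCKD against WTSHAM, 2542 in WTCKD+RNLS against WTCKD and 4094 in KOCKD+RNLS against KOCKD. Counts of list members at that threshold below stand beside these numbers. With the thresholds of the study's methods, a level over 25% above that of the lower group and an unadjusted p under 0.05, here from edgeR where the study used DESeq, 670 genes were higher (5.29%; 1037 without WTSHAM replicate 1) and 1347 lower (10.6%), and 2897 genes (22.9%) had no overlap between the 3 treated and the 3 sham libraries. The count of called genes depended on single libraries. It was 1476 (631 higher, 845 lower) without WTSHAM replicate 1, 428 (118 higher, 310 lower) without WTSHAM replicate 2 and 553 (133 higher, 420 lower) without WTSHAM replicate 3. Leaving out WTCKD+RNLS replicate 2 gave 648 (242 higher, 406 lower). With only the 6 libraries compared in the fit (the 6-library fit), 293 genes were called (45 higher, 248 lower).

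Gene length moved with the comparison to a small degree. The 12484 genes with a known length were cut into 3 bins of equal size, and short genes (median 1791 bases) had a median log2 fold change of 0.08, the middle bin (3644 bases) 0.00 and long genes (7251 bases) -0.04. In WTCKD+RNLS replicate 2, short genes had a median deviation of 0.12 on the log2 scale and long genes of -0.15, while in WTCKD+RNLS replicate 1 these were -0.06 and 0.04. WTSHAM replicate 3 had -0.11 and 0.09. With length offsets, which level that trend in every library, the 3 medians were 0.00, 0.00 and 0.00, and 1210 genes were called (477 higher, 733 lower).

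Called genes were sorted into 3 classes by where WTCKD hearts stood, which overlap, since all 14 overshooting genes and 2 that stayed (Fgf13 and Tuba4a, named for this overlap) were also apart from both groups. Genes that stayed away from sham were called in the same direction in WTCKD and in WTCKD+RNLS against WTSHAM, and numbered 188 (1.49%), 42 higher and 146 lower. Genes that overshot sham were called in treated hearts and lay on the other side of sham in WTCKD by those thresholds of fold and unadjusted p, and numbered 14 (0.111%), 7 higher and 7 lower. Genes apart from both groups were called in the same direction against WTSHAM and against WTCKD, and numbered 243 (1.92%), 87 higher and 156 lower. The classes rest on shared libraries and are descriptions. The 146 lower genes that stayed had a median log2 fold change against sham of -1.42 in treated and -1.25 in untreated CKD hearts, and the 42 higher ones of 0.49 and 0.53. For the 156 lower genes apart from both groups these medians were -0.81 and 0.04, and for the 87 higher ones 0.54 and -0.05. The class sizes moved with single libraries. The genes that stayed numbered 110 without WTSHAM replicate 2, and 102, 125 and 104 without WTCKD replicates 1, 2 and 3. For the libraries that stood apart, they numbered 265 without WTSHAM replicate 1 and 179 without WTCKD+RNLS replicate 2. The overshooting genes numbered 7 without WTSHAM replicate 2, 8 without WTSHAM replicate 3, 9 without WTCKD+RNLS replicate 1, 8 without WTCKD+RNLS replicate 3 and 9 without WTCKD replicate 3. Genes apart from both numbered 400 without WTSHAM replicate 1, 132 and 144 without WTSHAM replicates 2 and 3, 124 and 137 without WTCKD+RNLS replicates 1 and 3, and 135 and 108 without WTCKD replicates 1 and 2, and without WTCKD+RNLS replicate 2 they numbered 243, now 118 higher and 125 lower. With only the 9 libraries of these 3 groups in the fit (the 9-library fit), 101 genes stayed, 8 overshot and 103 were apart from both.

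The type I interferon response stayed below sham as a whole. All 30 tested genes of this list, which holds antiviral effectors and the factors that induce them, were lower in treated than in sham hearts, and all 30 were also lower in WTCKD, so each belonged to the class that stayed. Their median log2 fold change was -1.94 against sham in treated hearts (0.01 over all genes), -1.79 in WTCKD, and -0.14 between treated and untreated CKD hearts, where 0 of 30 were called by edgeR's quasi-likelihood test or by DESeq2 and 2 had an unadjusted p under 0.05. Summed over the list, the level was 1461, 2083 and 1177 CPM in WTSHAM, 477, 495 and 412 in WTCKD, and 461, 409 and 399 in WTCKD+RNLS. The lowest sham library was thus above the highest CKD library of either kind. In treated against sham hearts all 30 were called with each sham or treated library left out and in each alternative fit. Their median there was -1.87 without WTSHAM replicate 1 and -2.0 without WTCKD+RNLS replicate 2. In WTCKD against WTSHAM all 30 were also lower with DESeq2 and with length offsets, and leaving out libraries was not examined by list. Over all genes, the 146 lower genes that stayed numbered 90, 105 and 91 without WTCKD replicates 1, 2 and 3.

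Irf7, the transcription factor that amplifies interferon production, was at 113, 180 and 81.3 CPM in WTSHAM, 18.1, 16.6 and 15.6 in WTCKD, and 18.2, 16.5 and 15.2 in WTCKD+RNLS. All CKD libraries lay below all sham libraries, and the treated and untreated CKD libraries overlapped. The log2 fold change of treated against sham was -2.90 (SE 0.26, edgeR quasi-likelihood, adjusted p = 3.57e-05), and that of WTCKD against sham was -2.89 (adjusted p = 9.56e-05 from the same edgeR fit). Bst2, which tethers budding viruses to the cell membrane, was at 87.1, 84.4 and 55.4 CPM in WTSHAM, 23.5, 24.7 and 17.2 in WTCKD, and 14.2, 17.2 and 12.5 in WTCKD+RNLS. The treated and untreated CKD libraries met at 17.2 CPM, far below every sham library, and the change against sham was -2.37 (SE 0.20, edgeR quasi-likelihood, adjusted p = 3.01e-05). Zbp1, a sensor of Z-form nucleic acid, had a log2 fold change of -3.34 (SE 0.39), Oas3, an RNA-activated synthetase, of -3.07 (SE 0.49), Ifi44 of -2.55 (SE 0.26), and Ifi27l2a, the most abundant member per length, of -1.90 (SE 0.27). The calls of these named genes held with each library left out. Ifit3 and its neighbour Ifit3b are near copies, so counts of this family are uncertain.

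The interferon-inducible GTPases, which attack the vacuoles of intracellular pathogens, showed the largest median fall of the gene lists with at least 10 tested members. Of 16 tested, 15 were lower in treated than in sham hearts (median log2 fold change -2.18), all 16 were lower in WTCKD against WTSHAM (-1.88), and 15 were in the class that stayed. Between treated and untreated CKD hearts the median was -0.14, with 0 of 16 called by edgeR's quasi-likelihood test or by DESeq2 and 0 at an unadjusted p under 0.05. The summed level was 776, 2784 and 1355 CPM in WTSHAM, 399, 430 and 292 in WTCKD, and 323, 292 and 379 in WTCKD+RNLS. Sham libraries therefore spread more widely among themselves than the CKD libraries did, with replicate 1 lowest. Iigp1, the most abundant of them per length, was at 99.5, 689 and 328 CPM in WTSHAM, 66.7, 69.9 and 52.7 in WTCKD, and 46.9, 34.3 and 58.9 in WTCKD+RNLS. Its treated libraries all lay below the sham libraries, with a log2 fold change of -2.99 (SE 0.47, edgeR quasi-likelihood, adjusted p = 0.00129). Igtp was at 44.9, 409 and 170 CPM in WTSHAM and 21.3, 19.1 and 38.0 in WTCKD+RNLS, again without overlap (log2 fold change -2.99, SE 0.53, edgeR quasi-likelihood, adjusted p = 0.00283). Gbp3 was at 64.7, 89.6 and 48.3 CPM in WTSHAM and 16.3, 15.1 and 11.2 in WTCKD+RNLS, and its log2 fold change was -2.25 (SE 0.23, edgeR quasi-likelihood, adjusted p = 6.95e-05). F830016B08Rik, an interferon-inducible GTPase by family, had overlapping groups, with 11.6, 453 and 313 CPM in WTSHAM and 5.16, 4.08 and 23 in WTCKD+RNLS (log2 fold change -4.56, SE 0.89, not called in the 6-library fit). Members of the Gbp family and the pair Tgtp1 and Tgtp2 are close copies, and their separate counts are uncertain.

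Promoters of the interferon lists are shown because their genes fell together. The 250 bases before each gene's start were taken from RefSeq on GRCm38.p6 and searched on both strands for the core of the interferon-stimulated response element, GAAA, any pair of bases, and GAAA again, a motif that was added after the results were seen. It was present in 2.98% of all 32851 promoters of this length. Of the type I interferon list, 21 of 30 genes had a promoter in the table and 9 held the motif (Bst2, Ifit1, Ifit3, Isg15, Oas1a, Oas3, Rsad2, Stat2 and Trim30a). Of the GTPases, 10 of 16 had a promoter and 9 held it (Gbp2, Gbp3, Gbp5, Gbp7, Igtp, Irgm1, Irgm2, Tgtp1 and Tgtp2), several of which are copies of each other. A match describes the letters only. Shown are Bst2 (chr8:71537473-71537722, minus strand), Gbp3 (first of its entries, chr3:142559794-142560043, plus strand) and Igtp (chr11:58199306-58199555, plus strand), each written 5′ to 3′ on the gene's strand with matches on either strand in capitals, which overlap in Bst2 and Gbp3.
Bst2: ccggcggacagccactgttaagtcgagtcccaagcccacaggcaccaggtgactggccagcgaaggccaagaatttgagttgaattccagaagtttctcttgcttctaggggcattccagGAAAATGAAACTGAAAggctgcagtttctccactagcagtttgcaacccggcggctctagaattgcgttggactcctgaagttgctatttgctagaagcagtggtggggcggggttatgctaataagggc
Gbp3: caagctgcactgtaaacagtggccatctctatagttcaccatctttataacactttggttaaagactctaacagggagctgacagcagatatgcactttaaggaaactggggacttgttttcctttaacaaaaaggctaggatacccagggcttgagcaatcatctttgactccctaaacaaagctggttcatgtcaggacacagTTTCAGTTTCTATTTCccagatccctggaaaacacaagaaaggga
Igtp: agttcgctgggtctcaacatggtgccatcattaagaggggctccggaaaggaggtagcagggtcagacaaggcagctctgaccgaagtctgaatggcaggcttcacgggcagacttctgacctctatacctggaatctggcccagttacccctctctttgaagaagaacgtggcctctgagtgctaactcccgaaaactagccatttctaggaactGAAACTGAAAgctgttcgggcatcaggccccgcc

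Calls among antigen presentation genes in treated against sham hearts were all of lower genes. For MHC class I processing, the route by which peptides from inside the cell reach the surface, 17 of 22 tested genes were lower (median log2 fold change -0.94) and 7 of them were in the class that stayed. In WTCKD against WTSHAM 7 were lower (9 by DESeq2), 20 had an unadjusted p under 0.05 and all 22 were negative (median -0.60), and between treated and untreated CKD hearts 0 were called by edgeR's quasi-likelihood test or by DESeq2, 5 had an unadjusted p under 0.05 and the median was -0.19. The study's gene set enrichment lists antigen presentation sets as upregulated in WTCKD against WTSHAM, from other gene lists and another method. The reason for this difference was not tested. B2m, the shared light chain of class I molecules, was at 497, 820 and 525 CPM in WTSHAM, 386, 479 and 307 in WTCKD, and 284, 282 and 239 in WTCKD+RNLS. WTCKD libraries lay between the other groups, and treated and sham libraries did not overlap (log2 fold change -1.20, SE 0.20, edgeR quasi-likelihood, adjusted p = 0.00224). Reads of the H2 family may be shared between its members. The class I count was 10 without WTSHAM replicate 2 (median -0.65), 11 without WTCKD+RNLS replicate 2 (-0.85) and 19 without WTSHAM replicate 1, and 10 in the 6-library fit. For MHC class II, which presents peptides taken up from outside, 5 of 9 were lower (median -1.01), with the processing protease Ctss at -1.01 (SE 0.20, edgeR quasi-likelihood, adjusted p = 0.00603), and none of the 9 was in the class that stayed, though all 9 were negative in WTCKD against WTSHAM (median -0.35). There edgeR's test called 0, while 1 was lower by DESeq2, 1 was lower with length offsets, and 1 had an unadjusted p under 0.05. The class II count in treated against sham hearts was 1 without WTSHAM replicates 2 or 3 or WTCKD+RNLS replicate 2, 2 without WTCKD+RNLS replicate 1, 3 without WTCKD+RNLS replicate 3 and 2 in the 6-library fit. Cd74, the class II chaperone (-1.10), and the class II chains H2-Aa (-1.21) and H2-Ab1 (-1.29) were lost without WTSHAM replicate 2 (-0.85, -0.95 and -0.99), WTSHAM replicate 3 (-1.0, -1.09 and -1.21) or WTCKD+RNLS replicate 2 (-1.03, -1.17 and -1.22), H2-Aa and H2-Ab1 also without WTCKD+RNLS replicate 1 (-1.22 and -1.32), H2-Aa without WTCKD+RNLS replicate 3 (-1.25), and all 3 in the 6-library fit. H2-DMb1, listed after its values were seen, completes the 5.

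Calls among complement genes and chemokines were also all of lower genes. Of 19 complement genes tested, 12 were lower (median log2 fold change -0.76), 2 of them in the class that stayed and 1 apart from both groups, and in WTCKD 18 were negative (-0.42), 7 at an unadjusted p under 0.05. C7, a part of the membrane attack complex, was at 43.8, 34.9 and 39.4 CPM in WTSHAM, 36.4, 39.9 and 26.7 in WTCKD, and 10.7, 13.2 and 17.4 in WTCKD+RNLS. The treated libraries were below both other groups, which overlapped, and the log2 fold change against sham was -1.52 (SE 0.23, edgeR quasi-likelihood, adjusted p = 0.000948). Cfp, which stabilises the alternative pathway convertase, was at 15.1, 15.1 and 14.5 CPM in WTSHAM, 10.8, 9.49 and 9.54 in WTCKD, and 6.74, 8.25 and 8.10 in WTCKD+RNLS, 3 ranges that did not overlap (treated against sham -0.95, SE 0.13, edgeR quasi-likelihood, adjusted p = 0.000514). The complement count was 7 without WTSHAM replicate 2 and 7 without WTCKD+RNLS replicate 2. Of 26 chemokines and receptors tested, 9 were lower (median -0.68), and in WTCKD against WTSHAM 0 were called, with 8 at an unadjusted p under 0.05 and 3 lower by DESeq2. Cx3cl1, the membrane-bound ligand of CX3CR1, was at 17.0, 23.8 and 18.4 CPM in WTSHAM, 20.6, 24.0 and 22.6 in WTCKD, and 10.2, 10.5 and 11.3 in WTCKD+RNLS. Its treated libraries were the lowest of the 3 groups (against sham -0.89, SE 0.13, edgeR quasi-likelihood, adjusted p = 0.000708). The chemokine count was 2 without WTSHAM replicate 2, 5, 5 and 3 without WTCKD+RNLS replicates 1, 2 and 3, and 5 in the 6-library fit, where Ccl12 (-2.01) was not called.

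Macrophage markers had lower genes as well. Of 20 tested, 12 were lower in treated than in sham hearts (median log2 fold change -0.76), 1 of which, Fcgr1, was in the class that stayed, and none was at 0. In WTCKD against WTSHAM all 20 were negative (median -0.42), 10 at an unadjusted p under 0.05. Their summed level was 746, 963 and 887 CPM in WTSHAM, 749, 758 and 562 in WTCKD, and 586, 509 and 538 in WTCKD+RNLS, with Lyz2 the most abundant per length. WTCKD libraries reached from sham down to the treated range. Fcgr1, a high-affinity antibody receptor, was at 11.3, 9.03 and 6.18 CPM in WTSHAM, 3.47, 2.30 and 2.04 in WTCKD, and 3, 2.23 and 1.76 in WTCKD+RNLS (treated against sham -1.92, SE 0.27, edgeR quasi-likelihood, adjusted p = 0.000618). C1qa, the first component of complement, which macrophages make, was at 95.5, 96.5 and 84.7 CPM in WTSHAM, 78.5, 72.3 and 55.9 in WTCKD, and 54.3, 59.6 and 49.1 in WTCKD+RNLS (-0.76, SE 0.13, edgeR quasi-likelihood, adjusted p = 0.00257). Both genes had no overlap between treated and sham libraries, while Lyz2 itself was not called (-0.51). The marker count was 7 without WTCKD+RNLS replicate 2 and 7 in the 6-library fit. The markers C1qa, C1qb and C1qc are also in the complement list, and Ccr2 and Cx3cr1 in the chemokine list, so these results share genes. In whole heart tissue, fewer cells of a type and less RNA per cell cannot be told apart. The part of the macrophage markers in the falls of other immune genes was not tested.

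Some chaperones of the endoplasmic reticulum also stayed low. Of 20 genes of endoplasmic reticulum stress tested, 10 were lower and 1 higher in treated hearts (median log2 fold change -0.36), and 8 of the 10 stayed away from sham; in WTCKD against WTSHAM the median was -0.36 as well. Pdia4, a disulfide isomerase, was at 56.9, 53.1 and 65.4 CPM in WTSHAM, 35.9, 41.2 and 34.5 in WTCKD, and 31.6, 32.9 and 32.9 in WTCKD+RNLS. Both CKD groups were below every sham library, and treated libraries were the lowest (-0.85, SE 0.10, edgeR quasi-likelihood, adjusted p = 0.00021). Hspa5, the main chaperone of this compartment, was at 727, 671 and 980 CPM in WTSHAM and 579, 502 and 524 in WTCKD+RNLS, and its fall of -0.57 was not called in the 6-library fit. Herpud1, a degradation factor named here after its values were seen, was the higher gene, at 0.84. In the 6-library fit 4 genes of the list were lower and 0 higher, and without WTSHAM replicate 2 the counts were 9 and 0. In KOCKD+RNLS against KOCKD 10 were lower and 1 higher (median -0.37), but 2 and 0 with length offsets (-0.24).

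Genes that stayed above sham were fewer and changed less. Their number, 42, was 94, 9 and 14 when WTSHAM replicate 1, 2 or 3 was left out, 12, 20 and 13 for WTCKD, 28 for WTCKD+RNLS replicates 1 or 3, 20 with a replicate block, 8 in the 9-library fit and 90 with DESeq2. They included Pdk2, a kinase that inhibits pyruvate dehydrogenase, at 611, 561 and 612 CPM in WTSHAM, 843, 801 and 906 in WTCKD, and 793, 839 and 816 in WTCKD+RNLS. All CKD libraries were above all sham libraries, and the log2 fold change was 0.46 (SE 0.08, edgeR quasi-likelihood, adjusted p = 0.00199) in treated and 0.52 (adjusted p = 0.00194 from the same edgeR fit) in untreated CKD hearts. Klf15, a transcription factor of nutrient use, was at 64.1, 43.5 and 47.0 CPM in WTSHAM, 76.6, 69.4 and 79.9 in WTCKD, and 81.8, 79.4 and 97.4 in WTCKD+RNLS (0.74, SE 0.14, edgeR quasi-likelihood, adjusted p = 0.00373). Fdft1, the first enzyme committed to sterol synthesis, was at 40.7, 37.1 and 37.2 CPM in WTSHAM, 50.9, 50.0 and 51.4 in WTCKD, and 61.2, 63.3 and 50.7 in WTCKD+RNLS (0.61, SE 0.09, edgeR quasi-likelihood, adjusted p = 0.000643). Neither gene's treated libraries reached the sham range. Fth1, the heavy chain of the iron store ferritin, rose by 0.41 (SE 0.08), a call lost at 0.41 in the 6-library fit, and Rbm3, an RNA-binding protein induced by cold, rose by 0.57, a call lost without WTSHAM replicate 3 (0.57) or WTCKD+RNLS replicate 1 (0.47) and in that small fit.

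**Figure D1:**
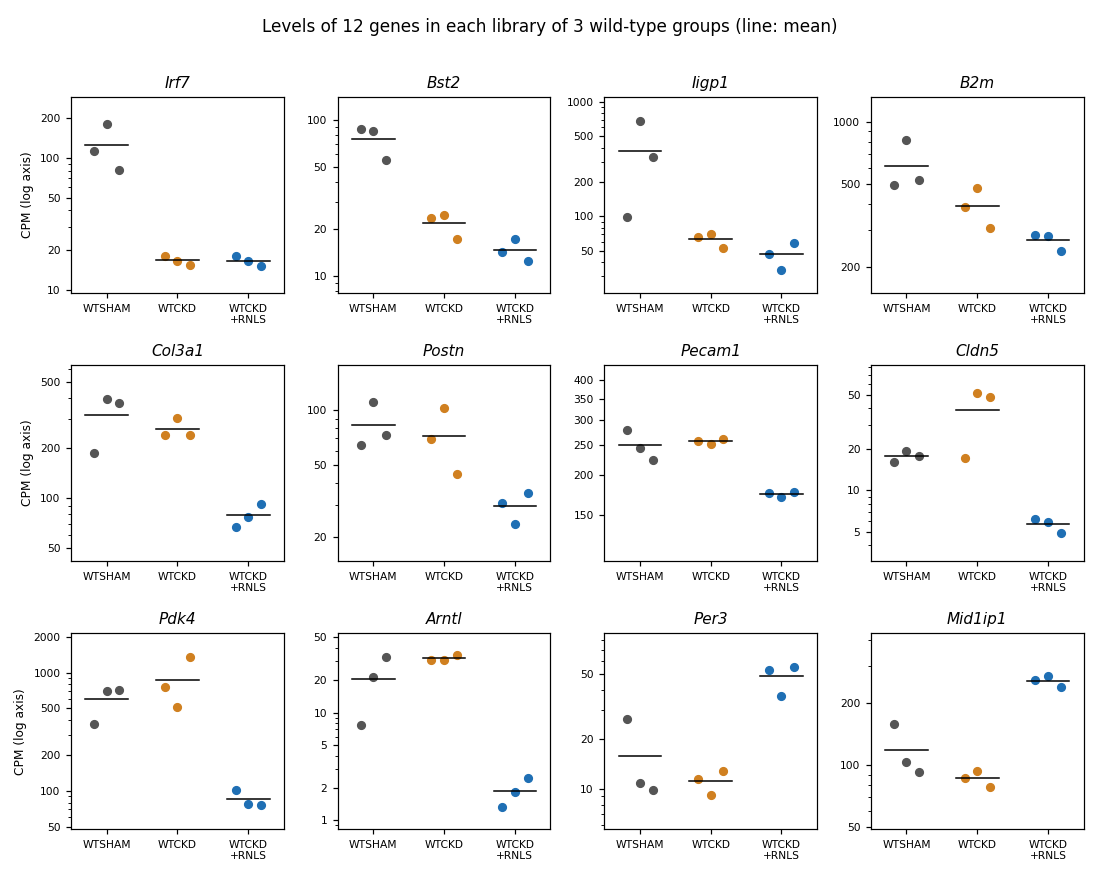
Levels of 12 genes in CPM (log axis) in WTSHAM, WTCKD and WTCKD+RNLS hearts, with a point for each library and a line at the mean of 3. Irf7, Bst2 and Iigp1 lie low in both CKD groups, Col3a1, Postn, Pecam1 and Pdk4 lie lowest in WTCKD+RNLS, and Cldn5 and Mid1ip1 have means on opposite sides of sham in WTCKD and in WTCKD+RNLS, with overlap of WTCKD and sham libraries.

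Calls among collagen chains were all of lower genes in treated hearts, against sham and against WTCKD. Of 30 tested, 18 were lower in WTCKD+RNLS than in WTSHAM (median log2 fold change -1.09), 10 of them apart from both other groups, and none was higher. In WTCKD against WTSHAM 0 were called, but 28 of 30 were negative, with 2 lower by DESeq2 and a median of -0.39. There, 8 of 30 had an unadjusted p under 0.05, beside 2285 of 12655 over all genes. The summed level was 1953, 3283 and 2861 CPM in WTSHAM, 2037, 2531 and 2476 in WTCKD, and 1260, 1103 and 1560 in WTCKD+RNLS, with Col4a1 the most abundant per length. Col3a1, a fibril-forming chain of fibroblasts, was at 187, 395 and 372 CPM in WTSHAM, 239, 303 and 240 in WTCKD, and 67.0, 77.6 and 92.2 in WTCKD+RNLS. The treated libraries were below all others, with WTSHAM replicate 1 the nearest, and the log2 fold change against sham was -2.01 (SE 0.24, edgeR quasi-likelihood, adjusted p = 0.000261). Col1a1, the main fibrillar chain, was at 111, 253 and 177 CPM in WTSHAM, 121, 166 and 125 in WTCKD, and 58.7, 66.4 and 87.7 in WTCKD+RNLS (-1.35, SE 0.26, edgeR quasi-likelihood, adjusted p = 0.00512). Whether counting used the strand was not given in the sources used here, so levels of genes that overlap or adjoin others are uncertain. Col4a1, a chain of the basement membrane, was at 478, 699 and 652 CPM in WTSHAM, 496, 584 and 685 in WTCKD, and 288, 265 and 370 in WTCKD+RNLS (-0.99, SE 0.15, edgeR quasi-likelihood, adjusted p = 0.00126). Col1a2 (-1.15), Col5a2 (-1.40) and Col6a3 (-1.08) also fell, and the calls of the other chains named held with each library left out, whereas that of Col4a2, whose gene adjoins Col4a1, was lost without WTSHAM replicate 2 (-0.60). The count was 11 without WTSHAM replicate 2 (median -0.76) and 9 in the 6-library fit, and it was 21 without WTSHAM replicate 1 and 12 without WTCKD+RNLS replicate 2.

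Matricellular and fibroblast matrix genes had lower calls too, and 0 higher. Of 25 tested, 11 were lower in treated than in sham hearts (14 by DESeq2, median log2 fold change -0.99). At an unadjusted p under 0.05 there were 19, and 5 were apart from both groups. WTCKD against WTSHAM gave 0 calls, 3 genes at an unadjusted p under 0.05 (2285 of 12655 over all genes), 0 by DESeq2 and a median of -0.29. For that comparison the study lists sets of fibroblast proliferation and epithelial-mesenchymal transition as upregulated. It used other gene lists and another method, and it also reports interstitial fibrosis with CKD from tissue staining. Why the matrix genes here differed from this was not tested. Postn, a protein of activated fibroblasts, was at 64.8, 111 and 73.2 CPM in WTSHAM, 69.3, 103 and 44.3 in WTCKD, and 30.7, 23.6 and 34.9 in WTCKD+RNLS (-1.48, SE 0.27, edgeR quasi-likelihood, adjusted p = 0.00347). Fbn1, the core of elastic microfibrils, was at 75.7, 149 and 154 CPM in WTSHAM, 84.7, 126 and 100 in WTCKD, and 45.9, 33.4 and 54.0 in WTCKD+RNLS (-1.51, SE 0.24, edgeR quasi-likelihood, adjusted p = 0.00143). For both genes the treated libraries lay below all sham and all WTCKD libraries, which overlapped each other.

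Among 21 matrix proteases and inhibitors, 5 were lower and 0 higher (median log2 fold change -0.46), namely Mmp14, Adamts2, Adamts4, Plau and, named after its values were seen, Timp1; without WTSHAM replicate 1 the counts were 9 and 1, and with DESeq2 8 and 1. Mmp14, a membrane-bound collagenase, was at 32.3, 42.6 and 37.9 CPM in WTSHAM, 33.7, 39.1 and 35.9 in WTCKD, and 21.3, 14.2 and 15.7 in WTCKD+RNLS. The treated libraries stood alone at the low end (-1.14, SE 0.16, edgeR quasi-likelihood, adjusted p = 0.000618). Adamts4, which cleaves proteoglycans, was weakly expressed, at 1.67, 3.39 and 3.61 CPM in WTSHAM and 0.250, 0 and 0.229 in WTCKD+RNLS. It passed the filter on low counts through the sham libraries alone. Its treated levels were near 0, so the fitted log2 fold change of -4.04 is not a measured fold, and its call is a description only. Among 25 TGF-beta ligands, receptors and SMADs, 5 were lower (median -0.26), with Smad3, the factor that carries TGF-beta signals to the nucleus, at 28.3, 29.4 and 32.7 CPM in WTSHAM, 31.4, 32.3 and 27.2 in WTCKD, and 18.8, 17.1 and 21.9 in WTCKD+RNLS. Its treated libraries did not overlap either group (against sham -0.64, SE 0.12, edgeR quasi-likelihood, adjusted p = 0.00493). The TGF-beta count of lower genes was 3 without WTSHAM replicate 1 or 3, 2 without WTSHAM replicate 2 or WTCKD+RNLS replicate 1, 1 without WTCKD+RNLS replicate 2 and 1 in the 6-library fit, and 3 with a replicate block. The others were Inhbb, listed after its values were seen, and Ltbp2 (-2.04), Ltbp4 (-0.45) and Bambi (-0.60), which hold or mimic parts of the pathway and were lost without WTCKD+RNLS replicates 1 (-1.77, -0.39 and -0.54) or 2 (-1.86, -0.39 and -0.53), Ltbp2 and Ltbp4 also without WTSHAM replicate 2 (-1.21 and -0.37) and with a replicate block, Ltbp4 without WTSHAM replicate 3 (-0.40), Bambi without WTSHAM replicate 1 (-0.46), and all 3 with only those 6 libraries. Of 42 integrins, laminins and their linkers, 9 were lower and 1, Lamb3, higher (median -0.33), with 2 lower without WTSHAM replicates 2 or 3 or WTCKD+RNLS replicate 2, 3 lower without WTCKD+RNLS replicate 1 and 1 lower in the 6-library fit. Itga9, an integrin subunit, fell by 0.65 on the log2 scale, a call lost with only those 6 libraries (-0.65).

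The 12 genes that the study names for these hearts held 7 that were lower in treated than in sham hearts and 0 that were higher (median log2 fold change -0.85), and 6 that were apart from both groups. Since the study named the collagen chains, Postn, Fscn1 and Bcl3 from these sequenced samples, the count is not independent evidence of a direction. Nppb, Myh6, Myh7 and Acta2 entered the study through qPCR or immunofluorescence of their products. Those lower were Col1a1, Col1a2, Col3a1, Col4a1, Col4a2, Postn and Bcl3, a nuclear cofactor of NF-kappa-B at -1.21, which was not called in the 6-library fit, nor was Col4a2. Fscn1, an actin-bundling protein, was at 22.7, 45.2 and 39.8 CPM in WTSHAM, 52.3, 52.3 and 71.6 in WTCKD, and 24.9, 25.5 and 28.4 in WTCKD+RNLS. Its treated libraries lay within the sham range, and it was not called (-0.46). Nppb (-0.04), Myh6 (0.19), Myh7 (0.44) and Acta2 (-0.45) were not called either, and their groups overlapped.

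Of 10 fibroblast markers tested, all were negative (median log2 fold change -0.54), 9 at an unadjusted p under 0.05. Those called were 3 lower and 0 higher (4 and 0 by DESeq2), namely Dpt and the collagen chains Col1a1 and Col3a1, all of them apart from both groups, and none of the markers was at 0. Their summed level was 2886, 4108 and 3859 CPM in WTSHAM, 3084, 3890 and 2444 in WTCKD, and 2409, 1871 and 2663 in WTCKD+RNLS, with Gsn, an actin-severing protein, the most abundant per length. Treated libraries were below the sham libraries and overlapped WTCKD, and neither Gsn (-0.59) nor Dcn (-0.40), which coats collagen fibrils, was called. Dpt (-0.77) was lost without WTSHAM replicate 2 (-0.73), WTSHAM replicate 3 (-0.64) or WTCKD+RNLS replicate 2 (-0.67), and 5 markers were lower without WTSHAM replicate 1. The part of these markers in the fall of the matrix genes was not tested.

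Calls among endothelial markers in treated hearts were mostly of lower genes. Of 15 tested, 7 were lower and 1, Sox17, was higher (median log2 fold change -0.28), with 4 apart from both groups, among which Cldn5 overshot, and none of the markers was at 0. Their summed level was 1881, 2003 and 1823 CPM in WTSHAM, 1904, 1837 and 2081 in WTCKD, and 1640, 1463 and 1526 in WTCKD+RNLS, with Cdh5 the most abundant per length. The treated sums were below all 6 others, though Cdh5 itself, the cadherin of endothelial junctions, was not called (-0.28). Pecam1, an adhesion molecule of the vessel lining, was at 279, 244 and 223 CPM in WTSHAM, 257, 251 and 261 in WTCKD, and 176, 171 and 177 in WTCKD+RNLS. Its treated libraries spread little and lay under both groups (against sham -0.51, SE 0.09, edgeR quasi-likelihood, adjusted p = 0.00315). Vwf, the clotting carrier stored in endothelium, was at 205, 102 and 95.5 CPM in WTSHAM, 68.1, 71.9 and 56.6 in WTCKD, and 53.4, 31.9 and 38.0 in WTCKD+RNLS, lowest without overlap (-1.70, SE 0.33, edgeR quasi-likelihood, adjusted p = 0.00486), and each WTCKD library was below each sham library too (-1.03, not called). The lower count was 3 without WTSHAM replicate 2, 4 without WTSHAM replicate 3, 5 and 5 without WTCKD+RNLS replicates 1 and 2, 4 without WTCKD+RNLS replicate 3 and 3 in the 6-library fit. The call of Kdr, the VEGF receptor (-0.42), was lost without WTSHAM replicate 2 (-0.29), WTSHAM replicate 3 (-0.36) or WTCKD+RNLS replicates 1 (-0.41), 2 (-0.42) or 3 (-0.44), and with RLE scaling, no filter, a replicate block, length offsets or only the 6 libraries. Sox17, named after its values were seen, was at 0.59, and no marker was higher without WTSHAM replicates 2 or 3 or WTCKD+RNLS replicates 1 or 2.

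Clock genes separated treated hearts from both other groups, while WTSHAM replicate 1 stood nearer to the treated libraries. Of 16 clock repressors and PAR bZIP factors tested, 10 were higher in treated than in sham hearts (median log2 fold change 0.99), 8 of them apart from both groups, among which Hlf overshot; none was called in WTCKD against WTSHAM, with 2 at an unadjusted p under 0.05 and 0 by DESeq2. The summed level was 1037, 717 and 550 CPM in WTSHAM, 681, 748 and 716 in WTCKD, and 1496, 1263 and 1392 in WTCKD+RNLS. Treated sums were the highest of these 9, with WTSHAM replicate 1 next. Arntl, the activator of the clock, was at 7.67, 21.4 and 32.6 CPM in WTSHAM, 30.6, 30.9 and 34.1 in WTCKD, and 1.33, 1.85 and 2.45 in WTCKD+RNLS. Treated values were far below both groups (against sham -3.44, SE 0.47, edgeR quasi-likelihood, adjusted p = 0.000495), and the call held with each library left out. Its partner Clock fell by 0.84 (SE 0.15) and Npas2 by 1.44, the latter with overlap and lost without WTSHAM replicates 2 (-1.42) and 3 (-0.94) and WTCKD+RNLS replicates 1 (-1.61), 2 (-1.34) and 3 (-1.40). These were the 3 lower genes of 6 activators and antiphase genes (median -0.73). In the 6-library fit Clock and Npas2 were lost, Npas2 also with a replicate block. The time of day at which hearts were taken was not given in the sources used here.

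Hlf, a PAR bZIP output factor, was at 30.9, 28.7 and 20.4 CPM in WTSHAM, 19.6, 20.4 and 13.4 in WTCKD, and 78.4, 47.3 and 60.8 in WTCKD+RNLS. It was highest in the treated libraries without overlap (1.22, SE 0.23, edgeR quasi-likelihood, adjusted p = 0.00481) and its call held with each library left out. Ciart, a repressor of the clock, was at 9.42, 1.66 and 0.515 CPM in WTSHAM, 1.27, 1.66 and 1.53 in WTCKD, and 22, 17.2 and 17.0 in WTCKD+RNLS (2.31, SE 0.60, edgeR quasi-likelihood, adjusted p = 0.0279). WTSHAM replicate 1 was the highest library outside the treated group, and the call was lost without WTSHAM replicate 2 (1.95), WTSHAM replicate 3 (1.78), WTCKD+RNLS replicate 1 (2.17) or WTCKD+RNLS replicate 2 (2.36). Without WTSHAM replicate 1 the log2 fold change of Ciart was 4.10. Per3, a period protein, was at 26.6, 10.9 and 9.86 CPM in WTSHAM, 11.5, 9.12 and 12.8 in WTCKD, and 52.9, 36.6 and 55.0 in WTCKD+RNLS (1.62, SE 0.36, edgeR quasi-likelihood, adjusted p = 0.0132), and its call was lost without WTSHAM replicate 2 (1.42) or 3 (1.37). Usp2, a deubiquitinase under clock control, and Wee1, a kinase that blocks mitosis, rose by 0.96 and 1.16, and were lost only where the 6 libraries alone were fitted. Per1 (1.41) was lost without WTSHAM replicate 2 (1.09), WTSHAM replicate 3 (1.29), WTCKD+RNLS replicate 1 (1.40) or WTCKD+RNLS replicate 3 (1.33), and Tef (1.03) without WTSHAM replicate 2 (0.87), WTSHAM replicate 3 (0.77), WTCKD+RNLS replicate 1 (0.99) or WTCKD+RNLS replicate 2 (1.02). Without WTSHAM replicate 1, Per1, Per3 and Tef were at 2.034, 2.215 and 1.592. Nr1d2 (0.69), Cry2 (0.76) and Bhlhe41 (0.74) were lost without WTSHAM replicate 2 (0.68, 0.62 and 0.76), WTSHAM replicate 3 (0.54, 0.60 and 0.58) or WTCKD+RNLS replicate 1 (0.66, 0.58 and 0.58), Nr1d2 also without WTCKD+RNLS replicate 3 (0.63) and Bhlhe41 without WTCKD+RNLS replicate 2 (0.79). The count of repressors called was 3 without WTSHAM replicate 2 (median 0.86), 3 without WTSHAM replicate 3 (0.78), 4 without WTCKD+RNLS replicate 1 and 2 in the 6-library fit, and it was 13 without WTSHAM replicate 1 and 7 without WTCKD+RNLS replicate 2. In that small fit Ciart, Per1, Tef, Nr1d2, Cry2 and Bhlhe41 were lost too, Bhlhe41 also with a replicate block. Nr1d1, a repressor of Arntl, was not called (-0.20) and its groups overlapped.

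Promoters of clock repressors are shown because most of these genes rose. The same 250 bases of RefSeq sequence were searched on both strands for the E-box CACGTG, present in 6.02% of all promoters, the D-box TTANGTAA, in 2.06%, and the ROR element AGGTCA, in 14%. Of the repressors and PAR bZIP factors, 13 of 16 had a promoter, and the E-box was in 6 of them (Bhlhe41, Ciart, Cipc, Cry1, Per1 and Tef), the D-box in 1 (Per3) and the ROR element in 2 (Nr1d2 and Per1). Cipc and Cry1 were not called in treated against sham hearts. These 13 genes had 16 promoter entries and are counted by gene, whereas the shares over all promoters count entries. All 6 activators and antiphase genes had a promoter, of which 2, Clock and Nfil3, held the ROR element, and Nfil3 was not called. Shown are Ciart (chr3:95882229-95882478, minus strand), with E-boxes in capitals, and Per3 (chr4:151044666-151044915, minus strand), with D-boxes in capitals, on GRCm38.p6.
Ciart: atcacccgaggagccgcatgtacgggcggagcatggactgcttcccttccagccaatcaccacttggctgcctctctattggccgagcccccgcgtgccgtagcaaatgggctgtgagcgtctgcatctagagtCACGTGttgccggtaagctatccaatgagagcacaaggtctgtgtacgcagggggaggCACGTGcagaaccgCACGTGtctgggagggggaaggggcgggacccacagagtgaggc
Per3: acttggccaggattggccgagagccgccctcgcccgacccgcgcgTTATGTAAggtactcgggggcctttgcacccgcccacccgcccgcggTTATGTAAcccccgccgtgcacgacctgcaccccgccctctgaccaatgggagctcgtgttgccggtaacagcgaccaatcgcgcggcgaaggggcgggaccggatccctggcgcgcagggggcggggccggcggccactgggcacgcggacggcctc

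Genes of the PPAR fuel switch, which move the heart between fatty acids and glucose, were called lower or not at all in treated hearts. Of 25 tested, 10 were lower and 0 higher (median log2 fold change -0.33), 5 of them apart from both groups; in WTCKD against WTSHAM 0 were called, with 9 at an unadjusted p under 0.05 and 0 by DESeq2 (median -0.12). Pdk4, a kinase that shuts off glucose oxidation, was at 366, 704 and 717 CPM in WTSHAM, 754, 518 and 1348 in WTCKD, and 102, 77.2 and 76.4 in WTCKD+RNLS. The treated libraries stood apart from both groups (against sham -2.80, SE 0.40, edgeR quasi-likelihood, adjusted p = 0.000618). Angptl4, an inhibitor of lipoprotein lipase, was at 7.17, 24.6 and 11.3 CPM in WTSHAM, 13.6, 6.91 and 35.2 in WTCKD, and 0.999, 0.649 and 0.306 in WTCKD+RNLS (-4.46, SE 0.77, edgeR quasi-likelihood, adjusted p = 0.00243). Ucp3, a mitochondrial carrier, was at 50.6, 102 and 95.5 CPM in WTSHAM, 86.1, 48.4 and 149 in WTCKD, and 25.0, 13.4 and 8.64 in WTCKD+RNLS (-2.40, SE 0.48, edgeR quasi-likelihood, adjusted p = 0.00681). Neither gene's treated libraries overlapped another group. Treated levels of Angptl4 were near 0, so the size of its fall is uncertain. It ranged from -4.93 to -3.82 with single sham or treated libraries left out. Fabp3, a fatty acid carrier, was at -0.54, a call lost without WTCKD+RNLS replicate 1 (-0.50) or 3 (-0.45) and in the 6-library fit. The count was 6 without WTCKD+RNLS replicate 3 and 5 in the 6-library fit. By contrast, 0 of 19 genes of mitochondrial fatty acid oxidation were called by edgeR's test or by DESeq2, with 0 at an unadjusted p under 0.05 and a median of 0.01.

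The 14 genes that overshot sham were Ammecr1, Gpr22, Hlf, Kcnj12, Micall1, Mid1ip1 and Pla2g4e, which were higher in treated hearts, and Bcl6b, Cdkn1a, Cldn5, Kctd12b, Rhoc, Slc41a3 and Tmem140, which were lower. Their median log2 fold changes were 0.57 against sham and -0.45 in WTCKD against sham for the former, and -0.72 and 0.46 for the latter. In WTCKD against sham, 4 of the 14 (Ammecr1, Cldn5, Kcnj12 and Micall1) were called after adjustment and 10 were not. Cldn5, the main tight-junction protein of endothelium, was at 16.1, 19.3 and 17.9 CPM in WTSHAM, 17.3, 51.3 and 47.9 in WTCKD, and 6.24, 5.84 and 4.89 in WTCKD+RNLS. WTCKD replicate 1 lay with the sham libraries and the treated libraries lay below all others. Against sham, treated hearts were at -1.65 (SE 0.32, edgeR quasi-likelihood, adjusted p = 0.00569) and WTCKD at 1.12 (adjusted p = 0.0498 from the same edgeR fit). Mid1ip1, an activator of fatty acid synthesis, was at 157, 103 and 92.8 CPM in WTSHAM, 87.0, 93.4 and 78.6 in WTCKD, and 258, 270 and 238 in WTCKD+RNLS. The treated libraries were the highest without overlap (1.12, SE 0.16, edgeR quasi-likelihood, adjusted p = 0.000681), and WTCKD overlapped sham (-0.45, adjusted p = 0.159 from the same edgeR fit). Kcnj12, an inward rectifier potassium channel, was at 45.8, 46.2 and 45.5 CPM in WTSHAM, 36.2, 35.6 and 32.3 in WTCKD, and 67.8, 55.2 and 64.2 in WTCKD+RNLS, with sham libraries almost equal and the 3 groups separate (0.44, SE 0.10, edgeR quasi-likelihood, adjusted p = 0.0132), a call lost without WTCKD+RNLS replicate 1 (0.38). Cdkn1a, a brake on the cell cycle, was at 47.2, 41.5 and 44.0 CPM in WTSHAM and 20.5, 22.6 and 27.7 in WTCKD+RNLS, but its call (-0.90) was lost without WTSHAM replicates 1 (-0.86), 2 (-0.94) or 3 (-0.90), without WTCKD+RNLS replicates 1 (-0.81), 2 (-0.88) or 3 (-1.04), and with RLE scaling, the filter over 15 libraries, a replicate block or DESeq2. Slc41a3, a magnesium transporter (-0.90), had overlapping groups and was lost without WTSHAM replicates 2 (-0.72) or 3 (-0.65) or WTCKD+RNLS replicates 1 (-0.96), 2 (-0.89) or 3 (-0.86), and with a replicate block. In the 6-library fit Slc41a3 and Kcnj12 were lost. Those not in the rule for naming (Ammecr1, Gpr22, Micall1, Pla2g4e, Bcl6b, Rhoc and Tmem140) complete the class.

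A minority of contractile genes was called, most of them higher in treated hearts. Of 32 sarcomere and Z-disc genes tested, 7 were higher and 1, Neb, lower (median log2 fold change 0.16). Tnnt2, cardiac troponin T, was at 8740, 8440 and 7937 CPM in WTSHAM, 10540, 9194 and 10490 in WTCKD, and 12500, 12130 and 10720 in WTCKD+RNLS. The treated libraries were above all sham and WTCKD libraries (against sham 0.49, SE 0.09, edgeR quasi-likelihood, adjusted p = 0.00315). Mybpc3, which tethers myosin heads, was at 4812, 4000 and 4201 CPM in WTSHAM, 5301, 4975 and 5937 in WTCKD, and 5903, 6517 and 6764 in WTCKD+RNLS, highest there with some overlap with WTCKD (0.56, SE 0.10, edgeR quasi-likelihood, adjusted p = 0.00222). Neb, the ruler of thin filaments in skeletal muscle, stayed below sham at 17.0, 10.6 and 18.8 CPM in WTSHAM, 3.64, 7.64 and 5.62 in WTCKD, and 4.25, 3.52 and 9.10 in WTCKD+RNLS (-1.44, SE 0.31, edgeR quasi-likelihood, adjusted p = 0.011). It was lost in the 6-library fit, as was Myom2 (0.80), a protein of the M-band. The higher and lower counts were 12 and 1 without WTSHAM replicate 1, 3 and 1 without WTSHAM replicates 2 or 3 or WTCKD+RNLS replicate 2, 6 and 2 when WTCKD+RNLS replicate 3 was left out, and 2 and 0 in the 6-library fit.

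Some cardiomyocyte markers were higher as well. Of 9 tested, 4 were higher, namely Tnnt2, Tnni3, Pln and Myl2 (median log2 fold change 0.25), and none was at 0. Their summed level was 86800, 81590 and 85780 CPM in WTSHAM, 85780, 81500 and 94530 in WTCKD, and 102100, 102200 and 101500 in WTCKD+RNLS, with Tnnt2 the most abundant per length. The treated sums were above all others, and the count was 1 without WTSHAM replicates 2 or 3 or WTCKD+RNLS replicate 2. Tnnt2, Tnni3 and Myl2 are also in the sarcomere list, as are Ttn, Actn2 and Myl3, so both results share genes. Beyond these shared genes, the part of cardiomyocyte markers in the sarcomere result was not tested. Tnni3, cardiac troponin I (0.37), Pln, the brake on the calcium pump (0.24), and Myl2, a ventricular light chain (0.39), were lost without WTSHAM replicate 2 (0.37, 0.23 and 0.42), WTSHAM replicate 3 (0.31, 0.22 and 0.37) or WTCKD+RNLS replicate 2 (0.26, 0.20 and 0.27), Pln also without WTCKD+RNLS replicate 1 (0.25), with no filter and with a replicate block, and all 3 in the 6-library fit. Of 4 ventricular markers, 2 were higher, Myl2 and Irx4, a homeobox factor of the ventricle at 0.37 (0.34 without WTSHAM replicate 3; list median 0.31), 1 without WTSHAM replicate 2 or WTCKD+RNLS replicate 2, and 0 without WTSHAM replicate 3 or in the 6-library fit. Among 16 hypertrophy and fetal genes, 1 was lower, Rcan1 (median -0.13), with 2 lower without WTSHAM replicate 3, 3 lower without WTCKD+RNLS replicate 3, 1 higher and 1 lower without WTSHAM replicate 1, and 2 and 3 lower with a replicate block and with DESeq2. Length offsets gave 1 higher and 2 lower. Rcan1, a target of calcineurin, was at 123, 132 and 126 CPM in WTSHAM, 149, 143 and 122 in WTCKD, and 74.5, 93.3 and 80.9 in WTCKD+RNLS. Treated values were below both groups (against sham -0.61, SE 0.12, edgeR quasi-likelihood, adjusted p = 0.00693), and Nppa, the atrial natriuretic peptide (-0.76), was not called.

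Of 27 ion channel genes tested, 5 were higher and 1, Scn4b, lower (median log2 fold change 0.14). Scn4b, a beta subunit of sodium channels, was at 80.7, 72.9 and 74.1 CPM in WTSHAM, 55.3, 53.6 and 73.6 in WTCKD, and 13.4, 44.8 and 30.3 in WTCKD+RNLS. Treated libraries varied among themselves but stayed below both groups (against sham -1.37, SE 0.27, edgeR quasi-likelihood, adjusted p = 0.00543), and the call was lost in the 6-library fit. Kcnip2, a partner of transient outward channels, stayed above sham at 0.45 and was lost without WTSHAM replicates 2 (0.38) or 3 (0.42) or WTCKD+RNLS replicates 1 (0.46) or 2 (0.41). Kcnip2 and Kcnj12 (0.44) were not called in the 6-library fit, and Kcnh2 and Abcc8, listed after their values were seen, were also higher. The higher and lower counts were 1 and 1 without WTSHAM replicate 2 or WTCKD+RNLS replicate 1, 2 and 1 without WTSHAM replicate 3, 3 and 1 with a replicate block, and 0 and 0 in the 6-library fit. The renin-angiotensin-aldosterone list had 1 higher and 0 lower of 9 genes (list median -0.24), 1 and 1 with length offsets, and 1 and 2 with DESeq2. The called gene was Agtr1a, the receptor of angiotensin II. It was at 37.9, 55.2 and 42.0 CPM in WTSHAM, 48.6, 59.9 and 58.3 in WTCKD, and 85.4, 70.6 and 69.3 in WTCKD+RNLS, with treated libraries the highest (0.74, SE 0.14, edgeR quasi-likelihood, adjusted p = 0.00524), and without WTCKD+RNLS replicate 3 another gene of the list was lower.

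Glucose uptake and glycolysis had 8 higher and 0 lower genes of 26 (median log2 fold change 0.27), 2 of which, Pdk2 and Gapdh, stayed above sham from WTCKD on. Slc2a4, the insulin-responsive glucose transporter, was at 643, 475 and 499 CPM in WTSHAM, 613, 587 and 703 in WTCKD, and 740, 833 and 752 in WTCKD+RNLS. All treated values were above the others (against sham 0.52, SE 0.10, edgeR quasi-likelihood, adjusted p = 0.0061). Gpi1 (0.50) and Pfkm (0.31), enzymes of the upper part of glycolysis, also rose, and with Slc2a4 they were lost in the 6-library fit. The count was 4 without WTSHAM replicate 2, 5 without WTSHAM replicate 3 or WTCKD+RNLS replicate 2, 13 with DESeq2 and 1 in the 6-library fit. Respiratory chain subunits had 4 higher (Atp5a1, Atp5b, Atp5c1 and Ndufa10) and 1 lower (Cox4i2) of 85, with a median of 0.22 and 39 at an unadjusted p under 0.05. That median was 0.07 without WTCKD+RNLS replicate 2 and 0.11 with length offsets, and the higher and lower counts were 8 and 1 without WTSHAM replicate 1, 15 and 0 when WTCKD+RNLS replicate 3 was left out, 2 and 0 without WTCKD+RNLS replicate 1, and 0 and 0 without WTSHAM replicates 2 or 3 or WTCKD+RNLS replicate 2. They were 13 and 1 with DESeq2, 10 and 1 with length offsets, 1 and 0 with no filter, 0 and 1 with a replicate block, and 0 and 0 in the 6-library fit. Cytosolic ribosomal protein genes had 0 of 77 called by edgeR's test or DESeq2, 9 at an unadjusted p under 0.05 and a median of 0.15, which was 0.01 without WTCKD+RNLS replicate 2 and 0.04 with length offsets.

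Insulin and IGF signalling had 4 lower (Irs1, Igf1, Igfbp7 and, listed after its values were seen, Igfbp4) and 1 higher (Grb14) of 20 genes (median log2 fold change -0.02). Irs1, the adaptor of the insulin receptor, was at 47.8, 44.5 and 55.2 CPM in WTSHAM, 54.2, 44.9 and 51.3 in WTCKD, and 26.8, 28.0 and 26.7 in WTCKD+RNLS. Treated hearts gave close values below both groups (against sham -0.86, SE 0.14, edgeR quasi-likelihood, adjusted p = 0.00135). Igfbp7, a binding protein (-0.47), was lost without WTSHAM replicate 2 (-0.29) or WTCKD+RNLS replicates 1 (-0.43) or 3 (-0.46), Grb14, an adaptor (0.43), without WTSHAM replicates 2 (0.35) or 3 (0.43) or WTCKD+RNLS replicate 2 (0.29), and both in the 6-library fit. The higher and lower counts were 0 and 2 without WTSHAM replicate 2, 0 and 3 without WTSHAM replicate 3 or WTCKD+RNLS replicate 2, and 1 and 2 without WTCKD+RNLS replicate 1. Lypd8l, of the Ly6 family, was among the 10 largest falls within the naming rule (called, mean over 2 CPM, no overlap of groups). It was at 11.4, 4.67 and 5.96 CPM in WTSHAM and 0.749, 1.48 and 0.917 in WTCKD+RNLS (-2.81, SE 0.43, edgeR quasi-likelihood, adjusted p = 0.00103).

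Stress lists were mixed and rested on few libraries. FoxO and muscle atrophy targets had 5 higher (Foxo3, Klf15, Sesn1, Ddit4 and Eif4ebp1) and 2 lower (Foxo4 and Cdkn1a) of 20 (median log2 fold change -0.01), with Sesn1, a stress-induced inhibitor of mTOR signalling, at 0.61 (SE 0.12), Eif4ebp1, a repressor of translation, at 0.66 (SE 0.11), and Foxo3 at 0.60, lost without WTSHAM replicates 2 (0.51) or 3 (0.52) and in the 6-library fit. Ddit4, a stress-induced inhibitor of mTOR (1.36), was lost without WTSHAM replicates 2 (1.12) or 3 (1.48) or WTCKD+RNLS replicates 1 (1.31), 2 (1.40) or 3 (1.35). The higher and lower counts were 7 and 0 without WTSHAM replicate 1, 3 and 0 without WTSHAM replicates 2 or 3, 4 and 0 without WTCKD+RNLS replicates 1 or 2 and 4 and 1 without WTCKD+RNLS replicate 3. Glucocorticoid-responsive genes had 3 higher (Tsc22d3, Per1 and Ddit4) and 3 lower (Cdkn1a, Pdk4 and Angptl4) of 16 with a median of 0.34, which was 1.01, with 8 higher and 2 lower, without WTSHAM replicate 1. In that list 0 were higher and 2 lower without WTSHAM replicates 2 or 3 or WTCKD+RNLS replicates 1 or 3. Immediate early genes had 1 lower of 26, Egr2, with a median of -0.49 that turned to 0.11 without WTSHAM replicate 1, where 2 were higher and 0 lower. Egr2, an early response factor, was at 13.7, 1.66 and 1.18 CPM in WTSHAM and 0.833, 0.742 and 0.306 in WTCKD+RNLS, with WTSHAM replicate 1 far above the rest, and the call (-3.12) was lost without WTSHAM replicate 1 (-1.18) or WTCKD+RNLS replicates 1 (-3.39), 2 (-3.26) or 3 (-2.77), with a replicate block and in the 6-library fit. Without WTSHAM replicate 2, 2 of this list were lower, and without WTCKD+RNLS replicates 1, 2 or 3, 0 were. Heat shock and cold-inducible genes had 2 higher (Cirbp and Rbm3) and 3 lower (Hsph1, Hsp90aa1 and Chordc1) of 18 with a median of -0.14, which was 0.22 without WTSHAM replicate 1, where 4 were higher and 1 lower. Hsph1, a chaperone (-0.97), was lost without WTCKD+RNLS replicate 1 (-0.76) and in the 6-library fit, and Chordc1, a partner of HSP90 (-0.47), without WTSHAM replicates 1 (-0.37) or 3 (-0.42) or WTCKD+RNLS replicates 1 (-0.41), 2 (-0.53) or 3 (-0.48), with RLE scaling, no filter or a replicate block and in the 6-library fit. Those counts were 2 and 6 without WTSHAM replicate 2, 1 and 3 without WTSHAM replicate 3, 1 and 0 when WTCKD+RNLS replicate 1 was left out, and 2 and 1 without WTCKD+RNLS replicates 2 or 3.

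The other lists held 1 to 5 called genes each, beside 2.96% higher and 5.03% lower over all genes tested. Taken as shares of list size these counts differ, and some lie above that background. Antioxidant and NRF2 targets had 3 higher (Gsta3, Gstm1 and Sod2) and 2 lower (Sod3 and Mgst1) of 31 (median log2 fold change 0.13), with counts of 6 and 2 without WTSHAM replicate 1, 1 and 1 without WTSHAM replicate 2, 1 and 2 without WTSHAM replicate 3 or WTCKD+RNLS replicate 2, 3 and 1 when WTCKD+RNLS replicate 1 was left out, and 2 and 1 for WTCKD+RNLS replicate 3. Angiogenic factors and receptors had 1 higher (Vegfb) and 3 lower (Aplnr, Kdr and Tek) of 19 (-0.15), none without WTSHAM replicate 2, and 3 higher and 4 lower without WTSHAM replicate 1. There, 0 and 1 were called without WTSHAM replicate 3, and 1 and 1 without WTCKD+RNLS replicates 1, 2 or 3. Sterol and fatty acid synthesis had 1 higher (Fdft1) and 2 lower (Hsd17b7 among them) of 31 (-0.13), with 5 lower without WTSHAM replicate 1, 1 without WTSHAM replicate 2 and 0 without WTSHAM replicate 3. Catecholamine receptors and degradation had 3 lower (Grk5 and Arrb1 among them) of 12 (-0.04), 1 without WTCKD+RNLS replicates 2 or 3. Calcium handling had 2 higher (Pln and Cacnb2) of 21 (0.04), none without WTSHAM replicates 2 or 3 or WTCKD+RNLS replicate 2. NAD synthesis and sirtuins had 2 higher (Sirt3 and Sirt5) of 19 (0.16), none without WTSHAM replicates 2 or 3 or WTCKD+RNLS replicate 2, 1 without WTCKD+RNLS replicates 1 or 3, and 3 without WTSHAM replicate 1. For that list DESeq2 gave 4 higher and length offsets 1. Iron uptake, storage and export had 1 higher (Fth1) and 2 lower (Slc40a1 and Cp) of 14 (-0.13), with 1 lower without any single library other than WTSHAM replicate 1, where 3 were. Autophagy and mitophagy had 1 higher of 22, Ulk1 (0.06), none without WTSHAM replicates 2 or 3 or WTCKD+RNLS replicate 2, and the cell cycle list had 1 lower of 22, Top2a (-0.37), which was 4 without WTSHAM replicate 1, 2 without WTCKD+RNLS replicate 2 and 0 without WTSHAM replicate 2 or WTCKD+RNLS replicates 1 or 3. Beside Kdr and Pln, given above, single calls were lost by library left out as follows. WTSHAM replicate 2: Gstm1 (0.36), Sod3 (-0.47), Vegfb (0.35), Aplnr (-0.85), Tek (-0.30), Arrb1 (-0.47), Cacnb2 (0.33), Sirt3 (0.27), Sirt5 (0.49), Cp (-0.52), Ulk1 (0.31) and Top2a (-1.35). WTSHAM replicate 3: Gstm1 (0.41), Vegfb (0.39), Aplnr (-1.32), Hsd17b7 (-0.66), Arrb1 (-0.55), Cacnb2 (0.35), Sirt3 (0.37), Sirt5 (0.46), Cp (-0.47), Ulk1 (0.32) and Top2a (-1.39). WTCKD+RNLS replicate 1: Sod3 (-0.52), Aplnr (-1.39), Sirt3 (0.33), Cp (-0.56) and Top2a (-1.34). WTCKD+RNLS replicate 2: Gstm1 (0.39), Vegfb (0.28), Aplnr (-1.36), Grk5 (-0.56), Arrb1 (-0.47), Cacnb2 (0.31), Sirt3 (0.28), Sirt5 (0.35), Cp (-0.41) and Ulk1 (0.25). WTCKD+RNLS replicate 3: Sod3 (-0.46), Aplnr (-1.38), Arrb1 (-0.53), Cacnb2 (0.28), Sirt3 (0.37), Slc40a1 (-0.52), Ulk1 (0.28) and Top2a (-1.52). WTSHAM replicate 1: Ulk1 (0.26). The 6-library fit ended the calls of these genes except Grk5, and those of Gsta3 and Mgst1. Sirt3, Vegfb and Cp were also lost with a replicate block, Sirt3 with no filter or length offsets too. Members named here beyond those the naming rule gives, such as Sod2, Hsp90aa1, Tsc22d3 and Gapdh, complete a list and were named after their values were seen.

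Markers of other cells and tissues were examined as well. Atrial cardiomyocyte markers had 0 of 7 called by edgeR's quasi-likelihood test or DESeq2 and 0 at an unadjusted p under 0.05, although their median log2 fold change was -1.72, with summed levels that varied within groups, at 176, 529 and 1364 CPM in WTSHAM, 1463, 2680 and 108 in WTCKD, and 168, 151 and 554 in WTCKD+RNLS, with Nppa the most abundant per length. Pacemaker markers had 0 of 3 called, with a median of -1.54 and 0 at an unadjusted p under 0.05 and 0 by DESeq2. Erythrocyte markers had 0 of 6 called by either tool and 0 at an unadjusted p under 0.05 (median 0.06), with summed levels of 626, 464 and 68.5 CPM in WTSHAM, 38.2, 107 and 46.5 in WTCKD, and 529, 477 and 218 in WTCKD+RNLS, with Hbb-bs the most abundant per length. The lower levels thus fell in WTSHAM replicate 3 and in all WTCKD libraries. The adipocyte markers summed to 3.50, 17.4 and 28.3 CPM in WTSHAM and 0.333, 0.742 and 2.75 in WTCKD+RNLS, and their tested member, Cfd, was not called (-4.32, 1 of 1 at an unadjusted p under 0.05, 0 by DESeq2), but was without WTSHAM replicate 1 (-4.80). Of 4 Schwann cell markers 1 was lower, Kcna1 (median -1.12), 2 without WTSHAM replicate 2 and 0 without WTSHAM replicate 3 or WTCKD+RNLS replicates 1 or 2, where Kcna1 itself (-1.91) was at -1.20, -1.69 and -1.75. Pericyte and smooth muscle markers had 0 of 10 called by either tool, 2 at an unadjusted p under 0.05 and a median of -0.11, with 1 higher without WTCKD+RNLS replicate 2. Neutrophil, brown adipocyte and skeletal muscle markers had 0 of 3, 2 and 2 tested genes called by either tool and 0 at an unadjusted p under 0.05, with Elovl3, Ucp1 and Myh2 at 0, and 1 neutrophil marker was higher without WTSHAM replicate 1. The T cell, mast cell and mesothelial lists had 1 tested gene each, 0 of them called by either tool or at an unadjusted p under 0.05. No B cell, lung or liver marker passed the filter on low counts, Sftpa1 and Apoa1 were at 0, and the 4 Y chromosome genes had a median of -0.03 and 0 called by either tool, with 2 at an unadjusted p under 0.05. The part of these cells in the results above was not tested.

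**Figure D2:**
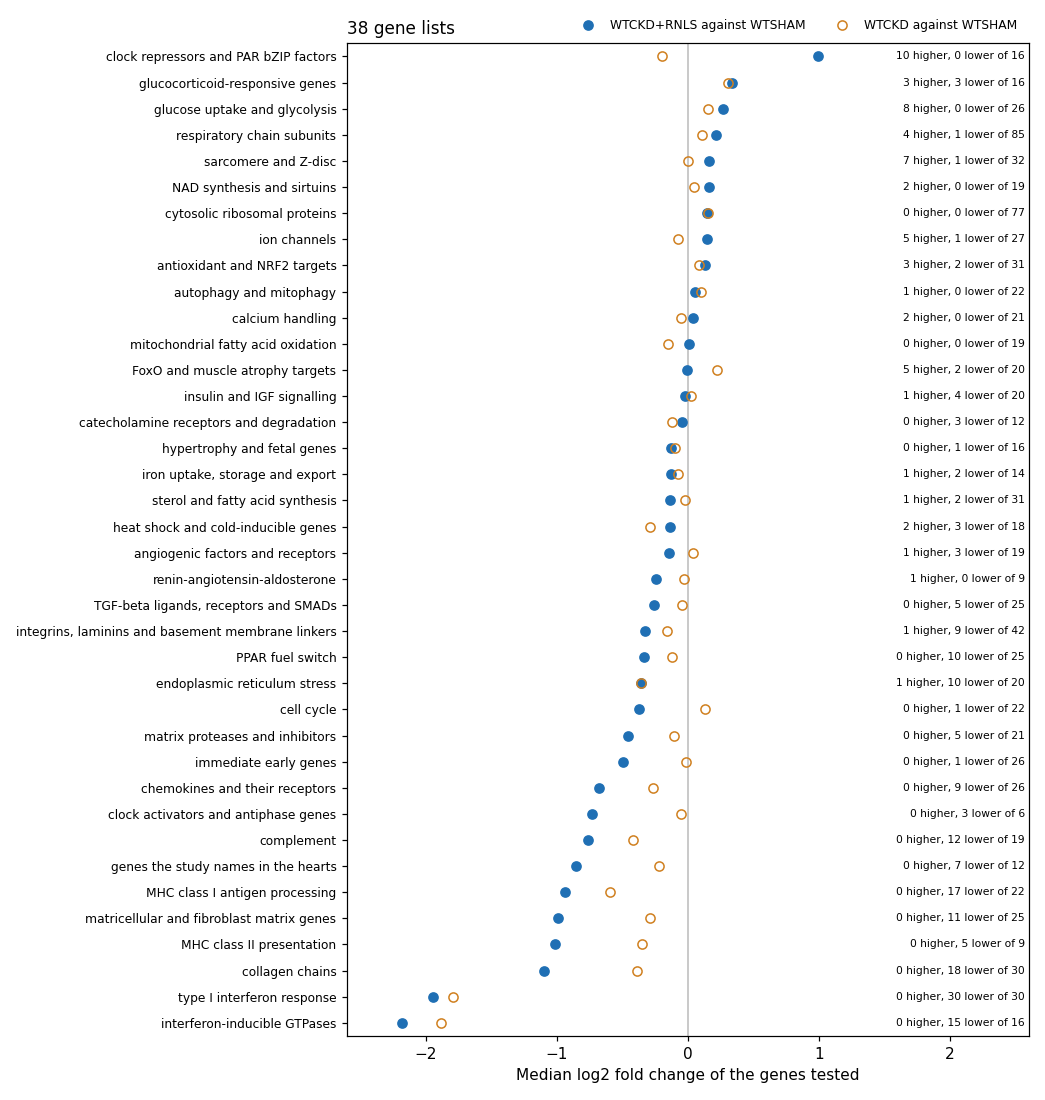
Median log2 fold change of each of 38 gene lists, with filled points for WTCKD+RNLS against WTSHAM and open points for WTCKD against WTSHAM, which shares the sham libraries. Numbers at the right give genes called higher and lower of those tested, and the points lie close at -1.94 and -1.79 for type I interferon and apart at -1.09 and -0.39 for collagen chains.

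**Figure D3:**
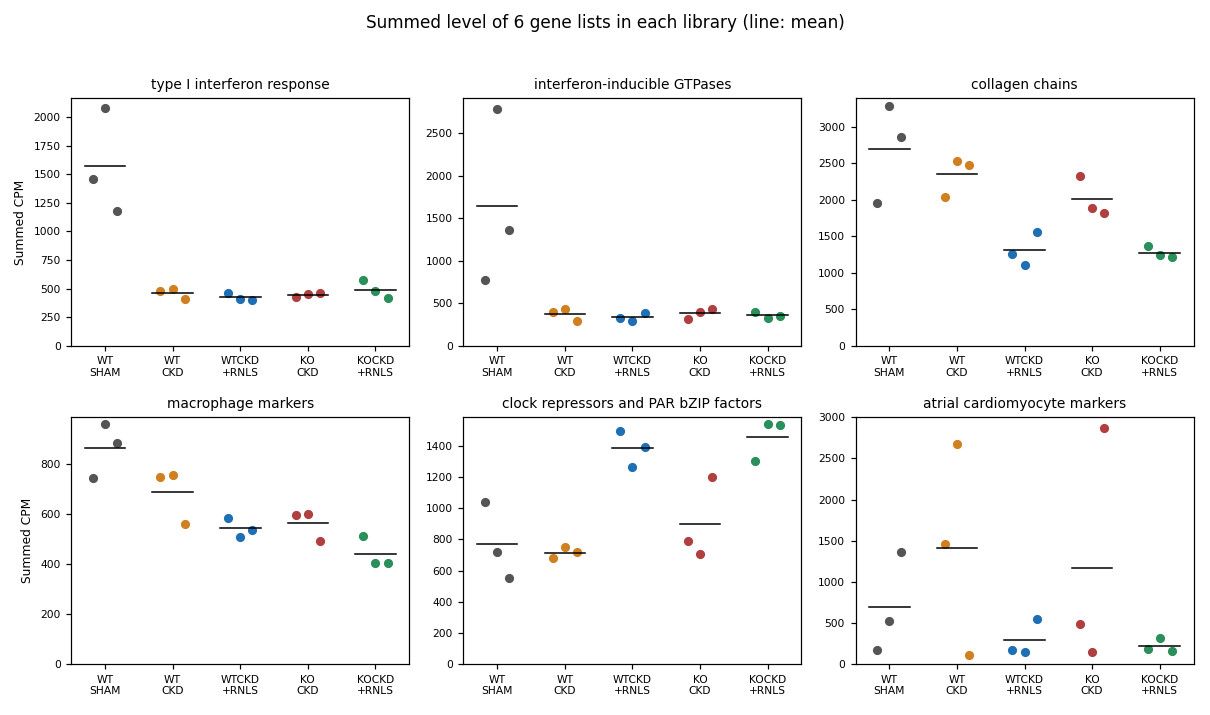
Summed CPM of 6 gene lists (axis from 0) in the 15 libraries of 5 groups, with a point for each library and a line at the group mean. Type I interferon genes and GTPases are highest in WTSHAM, collagen chains are lowest in both groups with renalase virus, and clock repressors are high there, while atrial markers vary within groups.

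The mice that lack renalase share no library with the contrast of treated and sham hearts, but all 15 libraries share 1 fit and its estimate of spread, so the calls are not independent. KOCKD+RNLS against KOCKD had 1185 higher (9.36%) and 947 lower (7.48%) genes by the same edgeR test. This count was 726 with length offsets (380 higher, 346 lower), 876 when KOCKD replicate 2 was left out, and 1142, 918 and 1277 for KOCKD+RNLS replicates 1 to 3. Of the genes higher in WTCKD+RNLS than in WTSHAM, 79 were also higher there, 21.1% of the former list and 6.67% of the latter, and 11 were lower, a number that ranged from 2 without WTSHAM replicates 2 or 3 to 37 without WTSHAM replicate 1, and was 34, beside 43 shared, without WTCKD+RNLS replicate 3. Of the lower genes, 120 were also lower there, 18.8% and 12.7% of the lists, and 20 were higher, from 8 without KOCKD+RNLS replicate 2 to 29 without WTSHAM replicate 1. With length offsets, 69 were shared among the higher (14.5% and 18.2%) and 88 among the lower genes (12% and 25.4%), with 5 and 6 opposite. The shared higher genes numbered 132, 28 and 41 when WTSHAM replicate 1, 2 or 3 was left out, 43, 119 and 43 for WTCKD+RNLS, 52 and 41 for KOCKD replicates 1 and 2, and 48, 37 and 43 for KOCKD+RNLS. The shared lower genes numbered 74 when WTSHAM replicate 2 was left out, 67 for KOCKD replicate 2, and 79, 56 and 73 for KOCKD+RNLS replicates 1 to 3. By class, calls there were as follows. Of the 42 higher and 146 lower genes that stayed, 2 and 9 were called in the same direction and 3 and 14 in the opposite one (median log2 fold changes 0.02 and 0.11). Of the 87 higher and 156 lower genes apart from both groups, 49 and 73 were called in the same direction and 1 and 0 in the opposite one (0.37 and -0.44). Of the 14 overshooting genes 7 of 7 higher and 6 of 7 lower were called in the same direction, all but Kctd12b (-0.38).

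Single genes and lists of KOCKD+RNLS against KOCKD stood as follows. Col3a1 was at 248, 168 and 170 CPM in KOCKD and 80.7, 59.7 and 56.0 in KOCKD+RNLS, without overlap (log2 fold change -1.58, edgeR quasi-likelihood, adjusted p = 0.00162). Arntl was at 23.4, 24.5 and 10 CPM in KOCKD and 1.62, 1.49 and 1.40 in KOCKD+RNLS (-3.66, edgeR quasi-likelihood, adjusted p = 0.000975). Cldn5 was at 38.0, 24.7 and 25.5 CPM in KOCKD and 9.75, 7.03 and 8.34 in KOCKD+RNLS (-1.81, edgeR quasi-likelihood, adjusted p = 0.00254). The clock repressors had 11 higher and 1 lower of 16 (median 0.97), but 5 and 0 with length offsets (0.91). The collagen chains had 7 lower and 3 higher of 30 (-0.19), but 8 and 0 with length offsets (-0.40), and the PPAR list 9 lower of 25 (-0.12). The type I interferon list had 3 higher of 30 (0.22), 1 with length offsets, and its sum was 426, 452 and 461 CPM in KOCKD and 571, 480 and 414 in KOCKD+RNLS, all below the lowest sham library at 1177 CPM. The GTPases had 0 of 16 called by either tool, 2 at an unadjusted p under 0.05 and a median of -0.15. Respiratory chain subunits had 52 lower of 85 (-0.35) and ribosomal protein genes 63 lower of 77 (-0.43), but 1 (0.00) and 5 (-0.08) with length offsets.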

How the data were processed

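Heart RNA of 15 mice, 3 in each of 5 groups named in the sample labels, was sequenced after stranded mRNA library preparation. Per the labels and the study's methods, the authors trimmed reads with Trimmomatic, used HISAT2 for alignment and HTSeq for the counts of each gene, and deposited these counts without normalization; they also deposited FPKM from Cufflinks, used here only to rank genes of a list by level per length. Tool versions, annotation and strand option were not given in the sources used here, and the genome build is given as mm9 in the supplement and GRCm39 in the labels, while the files hold no coordinates. Rnls and Xist were not analysed here, so the knockout and virus labels were not checked against the targeted gene. Some called members of the lists are counted but not reported singly.

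Genes with at least 10 counts in at least 3 of the 6 libraries were tested in R 4.3.3 with edgeR 4.0.16 (TMM scaling, quasi-likelihood fit over all 15 libraries, two-sided test, Benjamini-Hochberg adjustment over all genes tested). The code was tested on simulated data. DESeq2 1.42.0, RLE scaling, other filters, a fit on the libraries compared, a replicate block, length offsets and leaving out each library were the alternatives. Python 3.11.15 with pandas 2.3.3 and matplotlib 3.10.9 made tables and figures.

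The 38 gene lists and 21 marker lists were written from general knowledge; members and lists were chosen with earlier results of these data known. Genes were chosen for naming by rule: 10 genes at either end of the log2 fold change (called, mean over 2 CPM, no overlap of groups), up to 4 called members and the most abundant member of each list, every called clock gene, every gene the study names for the hearts, and the 6 with the largest change in each class. Others are said to be named after their values were seen. Not every gene so chosen is reported singly above. Among those left out, Lgi3 (1.525), Arrdc2 (1.517) and Rasd2 (1.331) were higher in treated than in sham hearts. The call of Arrdc2 was lost without WTSHAM replicate 3 (1.32).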

Additional observations from a re-analysis of the deposited data

How the results depend on the processing

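The count of 1011 called genes was 293 with only the 6 libraries compared in the fit. With only the 9 wild-type libraries, 101 genes stayed away from sham, 8 overshot it and 103 were apart from sham and WTCKD. DESeq2 put 380 genes apart from both, against 243. KOCKD+RNLS against KOCKD had 726 called genes with length offsets. The causes of these differences were not tested. Counts stayed within 1.5 times with RLE scaling, other filters and, that one apart, length offsets, and the log2 median over all genes shifted by no more than 0.011 with another scaling. With each library of the groups compared left out in turn, called genes numbered 428 to 1476, genes past the study's rule 1730 to 2572, genes that stayed 102 to 265, genes that overshot 7 to 14, genes apart from both 108 to 400, and calls in KOCKD+RNLS against KOCKD 876 to 1546.

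The replicate block gave 811 called genes. Replicate numbers do not pair the samples: the correlation of the deviations of same-numbered WTSHAM and WTCKD+RNLS libraries was -0.11, -0.203 and 0.356 for replicates 1, 2 and 3.

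Of 154 genes chosen by the naming rule and called against sham, 76 lost the call with only the 6 libraries in the fit, 50 without WTSHAM replicate 2, 49 without WTSHAM replicate 3, 38, 41 and 26 when WTCKD+RNLS replicate 1, 2 or 3 was left out, 17 with the replicate block, 8 without WTSHAM replicate 1, 8 with no filter, 3 with RLE scaling, 2 with length offsets, 1 with the filter over 15 libraries and 1 with DESeq2. None of them changed direction in these fits.

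With 3 libraries a group and 1 library apart in each, the spread is poorly known and genes with few counts are seen only where they changed much. Sequencing platform and time of sampling are not given per library, so no test for a batch was made. The offsets for gene length were corrected after first values were seen, because the first version shifted all genes alike.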
